A study of Rattus norvegicus with 6 samples.

Results

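The let-7 family is a set of microRNAs (miRNAs) that carry the same seed, the short stretch near the 5′ end through which a miRNA pairs with its target mRNAs. The 8 guide strands described here are rno-let-7a, rno-let-7b, rno-let-7c, rno-let-7d, rno-let-7e, rno-let-7f, rno-let-7i and rno-miR-98, written below without the prefix for rat. They were chosen by name among the 677 rat miRNAs on the array, with the passenger strands (names ending in *) kept apart, by a rule that uses the family name and no measured value. Of these 8, 6 were detected on at least 1 array and 3 (let-7b, let-7c and let-7i) on the 3 arrays required for a test.

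Plasma RNA of 6 male Wistar rats was hybridised with a single dye to Agilent arrays of rat miRNA probes, and each animal had its own array. Vehicle animals (3) were given 0.9% saline by the intraperitoneal route, and treated animals (3) were given thioacetamide at 100 mg/kg in the same saline by the same route. Blood plasma was studied 24 h after dosing, and 125 µl of each plasma was extracted. The animals' ages are not given in the sources used here. Plasma holds miRNAs released from many tissues and from blood cells, so that more release, slower clearance and a different mix of source cells cannot be told apart in these values.

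In the cell, let-7 precursors are cut by Drosha and Dicer, and the guide strand is loaded into an Argonaute protein while the passenger strand is mostly lost. The RNA-binding proteins LIN28A and LIN28B block this maturation in embryonic cells, and mature let-7 accumulates as cells differentiate. Textbook targets include Ras genes, Hmga2 and Myc. In adult animals let-7 miRNAs are found in liver and in blood cells, among many other tissues. Thioacetamide is a liver toxicant that hepatocytes oxidise to reactive metabolites, which injure the centre of the liver lobule.

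The mature sequences are shown first because they define the family and decide which members an array can tell apart. They are the RefSeq sequences of the rat assembly GRCr8, written 5′ to 3′, with the seed (bases 2 to 8) in capitals.
let-7a: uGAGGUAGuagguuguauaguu
let-7b: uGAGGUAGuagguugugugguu
let-7c: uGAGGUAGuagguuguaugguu
let-7d: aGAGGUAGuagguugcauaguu
let-7e: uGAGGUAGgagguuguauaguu
let-7f: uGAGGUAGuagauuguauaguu
let-7i: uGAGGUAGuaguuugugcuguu
miR-98: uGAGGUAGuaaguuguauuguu

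All 8 have the seed GAGGUAG and a length of 22 bases. With let-7a as the reference and positions counted from the 5′ end of the miRNA, let-7c differed from it by A19G alone, let-7e by U9G and let-7f by G12A. Let-7b differed by A17G and A19G, let-7d by U1A and U16C, and miR-98 by G11A and A19U. Let-7i was the most distant, with G12U, A17G, U18C and A19U. The family's other rat guide strand in RefSeq, let-7g, differs from let-7a by G12U and U18C. No probe named for let-7g was among those read, so it was not analysed here.

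Several members are encoded beside each other, all positions being those of GRCr8. On chromosome 17 the mature let-7a of Mirlet7a1 (16320145 to 16320166, plus strand) starts 363 bases before let-7f, and let-7d starts a further 1765 bases on. On chromosome 7 let-7c of Mirlet7c2 (118683636 to 118683657, plus strand) starts 408 bases before let-7b of Mirlet7b (118684044 to 118684065), while let-7i of Mirlet7i (60527935 to 60527956, minus strand) lies alone. On chromosome X let-7f of Mirlet7f2 starts 611 bases before miR-98. On chromosome 1 let-7e lies between miR-99b, 173 bases upstream, and miR-125a-5p, 446 bases downstream. Further copies of let-7a and let-7c lie on chromosomes 8 and 11, so that the array cannot tell which locus supplied them.

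Each member was measured with 2 probes of 18 to 22 bases, each printed on 10 spots, and all 16 probes were exact complements of the mature sequence. The longer probe of each member is shown because these letters decide both its neighbours in the family and its background. The sequences come from the scanner files, 5′ to 3′, and capitals mark the bases that differ from the complement of let-7a.
let-7a probe: aactatacaacctactacct
let-7b probe: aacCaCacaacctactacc
let-7c probe: aacCatacaacctactacc
let-7d probe: aactatGcaacctactacc
let-7e probe: aactatacaacctCctacc
let-7f probe: aactatacaaTctactacctc
let-7i probe: aacAGCacaaActactacctc
miR-98 probe: aacAatacaacTtactacctca

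Of the 16 probes, 12 were 1 mismatch from another member, the miR-98 probes were 2 mismatches from the closest member, and the let-7i probes were 3. The let-7i probes were closer, at 2 mismatches, to let-7g. Cross-hybridisation between members, or of let-7g to these probes, was not tested, and a value under a member's name is the signal of its probes. The probes are also nearly free of guanine: 12 of the 16 hold none and 4 hold 1, against a median of 4 over the 1644 miRNA probes of the array, of which 7.36% hold at most 1.

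The arrays themselves fell into separate sets by their place on the slide. This place was read from the last 2 numbers of the deposited array names, taken as row and column. Vehicle 2, vehicle 3 and thioacetamide 1 lay in columns 1 to 2, and vehicle 1, thioacetamide 2 and thioacetamide 3 in columns 3 to 4. On columns 1 to 2 the arrays held 27, 16 and 22 detected miRNAs, and on columns 3 to 4 they held 62, 69 and 83. Of the 99 miRNAs detected on any array, 63 (63.6%) were seen on columns 3 to 4 only and 8 on columns 1 to 2 only. As a check of the labels, miR-122, the main miRNA of hepatocytes, had scaled signals of 78.3, 64.4 and 7.87 in vehicle 1 to 3 and of 7116, 22851 and 29414 in thioacetamide 1 to 3.

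Detection of a probe required that more than 50% of its spots on the array be well above background in the scanner software's marks, and detection of a miRNA that either probe be detected. Of the 48 pairs of a let-7 member and an array, 14 were detected, 4 on vehicle arrays and 10 on thioacetamide arrays. Let-7b, let-7c and let-7i were each detected on vehicle 1, thioacetamide 2 and thioacetamide 3. Let-7a was detected on thioacetamide 2 and 3, let-7d on vehicle 1 and thioacetamide 3, and let-7f on thioacetamide 3. Let-7e and miR-98 were detected on no array.

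All 14 detections lay on columns 3 to 4, where vehicle 1 had 4 members, thioacetamide 2 had 4 and thioacetamide 3 had 6. No member was detected on vehicle 2, vehicle 3 or thioacetamide 1. The lowest signal of any detected probe was 136, 153 and 445 on those 3 arrays, against 19.6, 42.1 and 46.4 on vehicle 1, thioacetamide 2 and thioacetamide 3. The brightest let-7 probe of vehicle 1, the longer let-7i probe at 134, lay below all 3 of the levels of columns 1 to 2. The brightest of thioacetamide 3, the longer let-7c probe at 261, lay above those of vehicle 2 and 3 and below that of thioacetamide 1. On vehicle 1, 4 of the 6 detected let-7 probes were brighter than the brightest of the 7 negative controls, and on thioacetamide 2 and 3 only 2 of 5 and 2 of 8 were.

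The longer probe carried most of the detection. It was detected on more arrays than the shorter probe in 5 of the 6 detected members, and on as many in let-7b, for which both were detected on 3. For let-7i, the longer probe was detected on 3 arrays and the shorter on 1, and for let-7c the numbers were also 3 and 1. The pairs of probes differ by 1 base at the seed end of the miRNA.

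**Figure D1:**
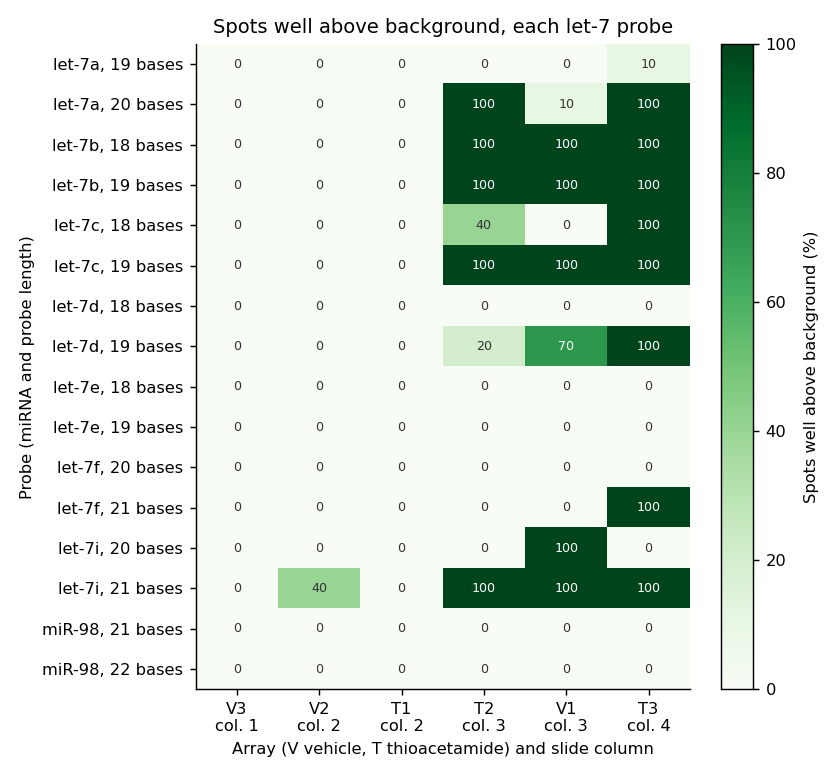
Share of the spots of each let-7 probe that the scanner software called well above background (colour and printed percent), with 1 row per probe and 1 column per array, ordered by slide column (V vehicle, T thioacetamide). Every probe past 50% lies on columns 3 to 4, and let-7e and miR-98 stay at 0 throughout.

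Let-7a, let-7d and let-7f, which lie together on chromosome 17, were measured well on too few arrays for a test. Processed signals, which are background-subtracted and can fall below 0, were 18.7, -33.8 and -56.7 for let-7a in vehicle 1 to 3 and -75.3, 71.4 and 169 in thioacetamide 1 to 3. Let-7d had 22.5, -26.8 and -33.5 against -32.1, 44.9 and 91.6, and let-7f had 6.78, -59.0 and -74.8 against -152, 28.7 and 70.4. For all 3 the highest arrays were thioacetamide 3 and then thioacetamide 2, while thioacetamide 1 lay among or below the vehicle arrays, so the groups overlapped.

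Let-7e and miR-98 stayed around or below 0. Let-7e had -1.80, -54.6 and -73.1 in vehicle 1 to 3 and -166, 1.11 and 11.3 in thioacetamide 1 to 3, and miR-98 had 1.41, -58.0 and -70.7 against -173, 6.49 and 3.15. For both, every array of columns 1 to 2 lay below every array of columns 3 to 4, and thioacetamide 1 was lowest.

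The members with the clearest signal were let-7b, let-7c and let-7i. Processed signals of let-7b were 99.7, 64.4 and -3.37 in vehicle 1 to 3 and 158, 164 and 338 in thioacetamide 1 to 3. Those of let-7c were 60.8, -2.99 and -33.0 against 95.3, 167 and 345. Those of let-7i were 161, 148 and 60.9 against 147, 68.7 and 123. Before scaling, every thioacetamide array was above every vehicle array for let-7b and let-7c, and the groups overlapped for let-7i. Neither let-7b nor let-7c was detected on thioacetamide 1. No let-7 probe on that array was brighter than its median negative control, at 148. On this unscaled signal 45.8% of the 59 tested miRNAs had groups that did not overlap.

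**Figure D2:**
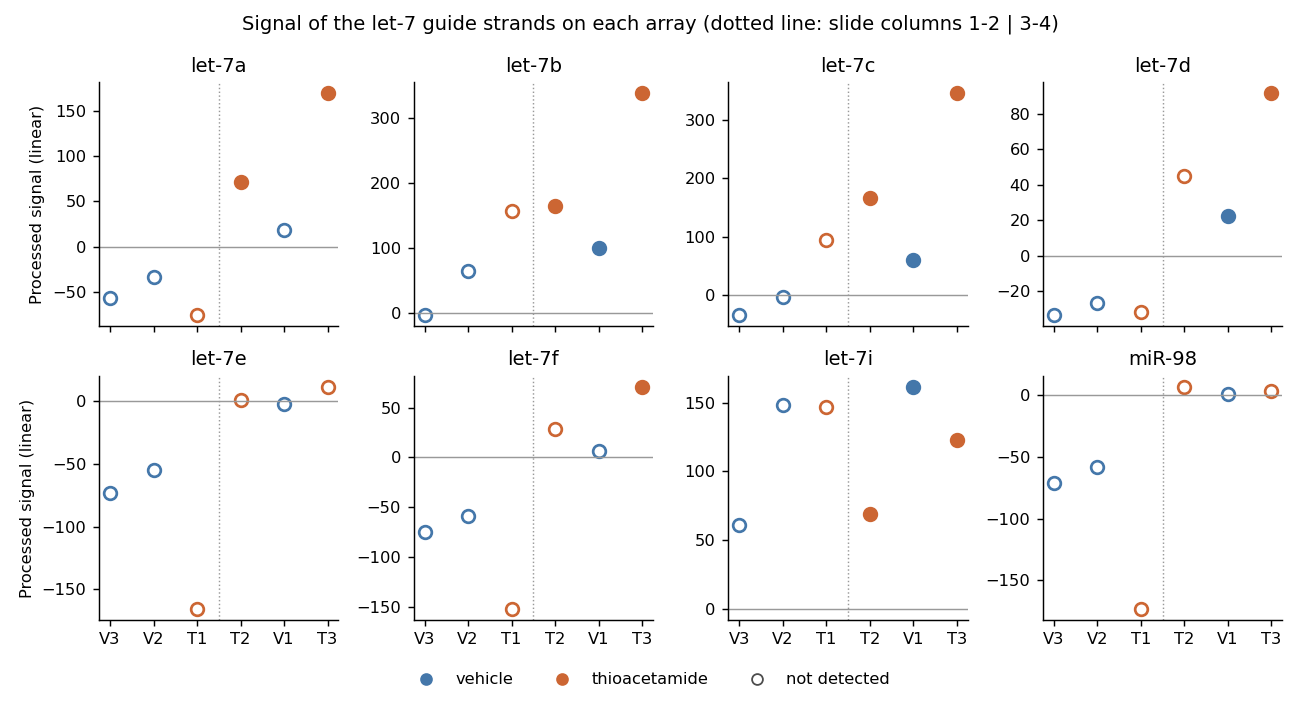
Processed signal (linear, unscaled, background-subtracted) of each let-7 guide strand on the 6 arrays, ordered by slide column with a dotted line between columns 1 to 2 and columns 3 to 4; filled points are detected, open points are not, and each panel has its own scale. Thioacetamide 3 is highest for let-7a, let-7b, let-7c, let-7d and let-7f, while let-7i is highest on vehicle 1 at 161.

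Arrays were then scaled on the probes detected on all 6, which brings down thioacetamide 1 (scale factor 2.27) and raises vehicle 3 (0.626). Scaled signals of let-7b became 107, 83.0 and -5.38 in vehicle and 69.3, 212 and 271 in thioacetamide, so thioacetamide 1 fell among the vehicle arrays. Those of let-7c became 65.0, -3.85 and -52.7 against 41.9, 215 and 276. Those of let-7i became 172, 191 and 97.3 against 64.6, 88.6 and 98.7, with thioacetamide 3 just above vehicle 3. All 3 tested members had overlapping groups on this scale; of all 59 tested miRNAs, 37.3% had groups that did not overlap.

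None of the 3 tested members passed limma's test over the 59 miRNAs (adjusted p under 0.05), where 10 miRNAs (16.9%) did, 9 of them higher (15.3%) and 1 lower (1.69%) after thioacetamide. None of the 3 had an unadjusted p under 0.05 either. The log2 difference, thioacetamide minus vehicle, was 1.10 ± 0.64 (SE) for let-7b, with a 95% interval of -0.44 to 2.63 and a limma adjusted p of 0.244. For let-7c it was 1.44 ± 0.72 (interval -0.30 to 3.18, limma adjusted p 0.214), and for let-7i it was -0.83 ± 0.42 (interval -1.84 to 0.17, limma adjusted p 0.214). As folds, thioacetamide over vehicle, the intervals run from 0.739 to 6.19 for let-7b, from 0.811 to 9.03 for let-7c and from 0.279 to 1.13 for let-7i. The median of the 3 differences was 1.10, beside 0.45 over all tested miRNAs. Under a floor of 46.1 set before the log, let-7c lay at the floor on 3 arrays and let-7b on 1, so that their differences depend on the floor.

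These calls turned on thioacetamide 1. Without it let-7c passed at 1.63 (limma adjusted p 0.0144), and with the miRNAs and scaling of all 6 arrays kept, let-7b at 1.69 (limma adjusted p 0.0311) and let-7c at 2.24 (limma adjusted p 0.00386) both passed. In the former fit 47.2% of tested miRNAs were called, 34.0% higher and 13.2% lower, and in the latter 45.8% were, 42.4% higher and 3.39% lower. Without vehicle 3 the difference of let-7b was -0.018 and that of let-7i passed at -1.91 (limma adjusted p 0.0308), beside 22.2% of tested miRNAs called, 11.1% in each direction. With the miRNAs and scaling of all 6 arrays kept, leaving out vehicle 3 gave 0.75 for let-7b and -1.13 for let-7i (limma adjusted p 0.143), and neither passed.

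Within columns 3 to 4, where the family was detected, let-7b and let-7c were higher and let-7i was lower on both thioacetamide arrays than on the vehicle array. Scaled signals of let-7b on thioacetamide 2 and 3 were 1.99 and 2.54 times that on vehicle 1, and those of let-7c were 3.31 and 4.25 times. Let-7i stood at 0.514 and 0.572 times its vehicle 1 signal. Let-7d, not tested but detected on vehicle 1 at a scaled signal of 24.1, had 57.9 on thioacetamide 2, where it was not detected, and 73.4 on thioacetamide 3. Let-7a and let-7f were not detected on vehicle 1, so no fold over it is given.

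A ratio of members on the same array needs no scaling, so it was set across these arrays. The signal of let-7b over that of let-7i was 0.618 on vehicle 1, 2.39 on thioacetamide 2 and 2.75 on thioacetamide 3. The signal of let-7c over that of let-7i was 0.377, 2.43 and 2.80 on the same arrays. These ratios restate the folds over vehicle 1 given above, free of the scaling, so their shared direction on both treated arrays is no separate result. There is 1 vehicle animal to compare them with.

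A limma fit of columns 3 to 4 alone sets the 2 treated arrays against 1 vehicle array, which is assumed to vary like them, so its p-values cannot tell the treatment from that 1 animal. It gave 1.17 for let-7b (limma adjusted p 0.0183), 1.91 for let-7c (limma adjusted p 0.00177) and -0.88 for let-7i (limma adjusted p 0.0473). In that fit 62.7% of the 59 tested miRNAs were called, 55.9% higher and 6.78% lower, and the median difference of all of them was 1.17. The differences of let-7b and let-7c are read against that median, which equals the value of let-7b. On columns 1 to 2 alone the differences were 0.16 for let-7b, 0 for let-7c, whose 3 arrays were all at the floor, and -1.08 for let-7i, beside a median of -0.42 over all tested miRNAs. That side has thioacetamide 1 as its only treated array, and no member was detected there. With slide side as a block over all 6 arrays, the differences were 0.67, 0.95 and -0.98, and none of the 3 passed.

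The calls of let-7b and let-7c also turned on the scaling. With no scaling, the median of all tested miRNAs moved up by 0.52, let-7b passed at 1.66 (limma adjusted p 0.0419) and let-7c at 1.86 (limma adjusted p 0.0362), with 37.3% of tested miRNAs called, all higher. With scaling on the labelling spike-in RNA, the median moved up by 0.64, let-7b passed at 1.71 (limma adjusted p 0.0487) and let-7c at 2.10 (limma adjusted p 0.0265), with 35.6% called, all higher. Under these same scalings the difference of let-7i was -0.08 and -0.01. Other choices made the differences of let-7b and let-7c smaller, and neither passed under them. They were 0.24 and 0.42 with quantile normalization, 0.61 and 0.91 with the median of the miRNAs seen throughout, 0.63 and 0.88 with the percentile over all probes, and 0.24 and 0.50 with normexp background correction.

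**Figure D3:**
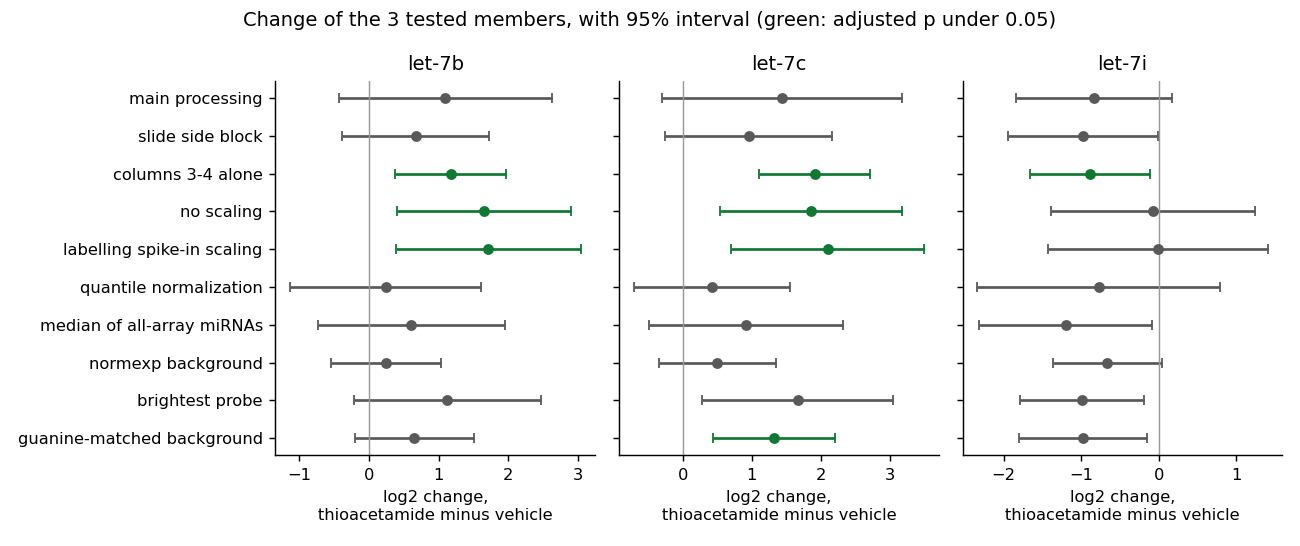
Log2 difference (thioacetamide minus vehicle) of let-7b, let-7c and let-7i with its 95% interval from limma under 10 ways of processing, in green where the adjusted p was under 0.05; the fit of columns 3 to 4 alone has 1 vehicle array. Let-7b and let-7c lie above 0 and let-7i below 0 in each of these 10, with let-7i nearest to 0 at -0.01 under spike-in scaling.

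The low-guanine probes of the family had a background of their own on columns 1 to 2. Among 1467 probes of other miRNAs that were detected on no array, the Spearman correlation of the processed signal with the number of guanines was 0.697, 0.723 and 0.710 on vehicle 2, vehicle 3 and thioacetamide 1, and 0.451, 0.318 and 0.333 on vehicle 1, thioacetamide 2 and thioacetamide 3. These are correlations across probes of 1 array, which share its scan and are not replicates. The 26 such probes with 0 guanines had median signals of -38.4, -46.5 and -125 on columns 1 to 2 and of -2.28, -1.49 and -4.85 on columns 3 to 4, in the same order of arrays. The 101 probes with 7 guanines had medians of 73.2, 77.4 and 195 against 6.66, 8.23 and 15.3.

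**Figure D4:**
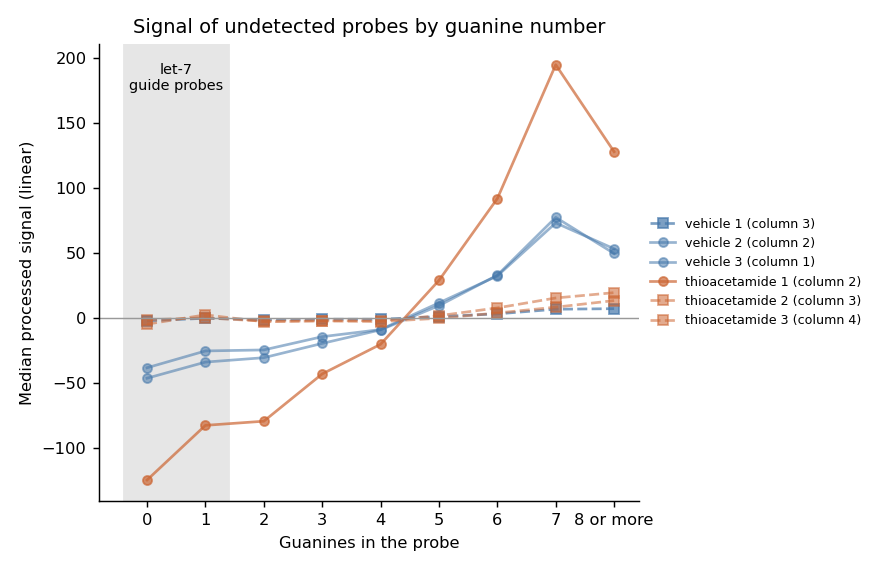
Median processed signal (linear) of probes detected on no array, other than those of the family, against the number of guanines in the probe, with 1 line per array (solid with circles for slide columns 1 to 2, dashed with squares for columns 3 to 4); the shaded band marks the let-7 guide probes. On thioacetamide 1 the medians run from -125 at 0 guanines to 195 at 7, while the 3 lines of columns 3 to 4 stay near 0.

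The passenger strands lay at the other end of this range. Their 32 probes hold 5 to 8 guanines, with a median of 6, and all 9 passenger strands had higher processed signals on each array of columns 1 to 2 than on any array of columns 3 to 4. Over the 677 miRNAs, 31.9% did so. Of the guide strands, 5 of 8 were lower on each array of columns 1 to 2 than on any of columns 3 to 4, as were 48.2% of the 677. Only let-7b* and let-7d* were detected on enough arrays for a test, and neither was called, with log2 differences of -0.64 ± 1.14 (SE, limma adjusted p 0.731) and -0.31 ± 1.06 (SE, limma adjusted p 0.800). Let-7d* was detected on all 6 arrays, and the scale was set on probes detected on all 6. On these arrays the guide probes are thus poor in guanine and the passenger probes rich in it, and the part of this in their signals by slide column was not tested beyond the matched values given next.

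The background was then matched: from each probe, the median signal of the undetected probes of other miRNAs with as many guanines on that array was subtracted, before scaling. This step was added after the data were seen. Scaled signals of let-7c then were 70.5, 96.6 and 91.6 in vehicle 1 to 3 and 152, 221 and 287 in thioacetamide 1 to 3, so every treated array was above every vehicle array. Those of let-7i were 175, 260 and 197 against 137, 89.5 and 96.0, with every treated array below. Those of let-7b were 112, 185 and 137 against 179, 218 and 282, where thioacetamide 1 stayed below vehicle 2. On this matched signal 49.2% of the 59 tested miRNAs had groups that did not overlap. None of these members was detected on vehicle 2, vehicle 3 or thioacetamide 1. Their matched values there are signals of undetected arrays and depend on the background subtracted.

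With the matched background let-7c passed the test and let-7b and let-7i did not. The fit takes in vehicle 2, vehicle 3 and thioacetamide 1, where no member was detected. The difference of let-7c was 1.32 ± 0.37 (SE, 95% interval 0.44 to 2.20, limma adjusted p 0.0390), that of let-7b was 0.65 ± 0.36 (SE, limma adjusted p 0.202) and that of let-7i was -0.97 ± 0.34 (SE, limma adjusted p 0.0771). In this fit 32.2% of the 59 tested miRNAs were called, 27.1% higher and 5.08% lower, and their median difference was 0.50. With slide side as a block as well, let-7c stood at 1.26 with a limma adjusted p of 0.0508, just above the threshold. On columns 3 to 4 alone, again with 1 vehicle animal and so no test of treatment beyond it, the difference was 1.84 (limma adjusted p 0.0389), where 42.4% of tested miRNAs were called, 39.0% higher and 3.39% lower.

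Of the 5 members not tested, let-7a, let-7d and let-7f had groups that did not overlap on the matched scaled signal, and let-7e and miR-98 had groups that did. Let-7a had 25.1, 56.3 and 55.5 in vehicle and 76.8, 96.8 and 145 in thioacetamide. Let-7d had 24.9, 31.6 and 52.8 against 58.7, 58.5 and 70.5. Let-7f had 12.2, 23.4 and 27.8 against 43.1, 41.3 and 64.9, and its groups overlapped once the floor was set. These are mostly signals of undetected arrays. Over all 677 miRNAs, most of them detected on no array, 8.27% had groups that did not overlap.

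**Figure D5:**
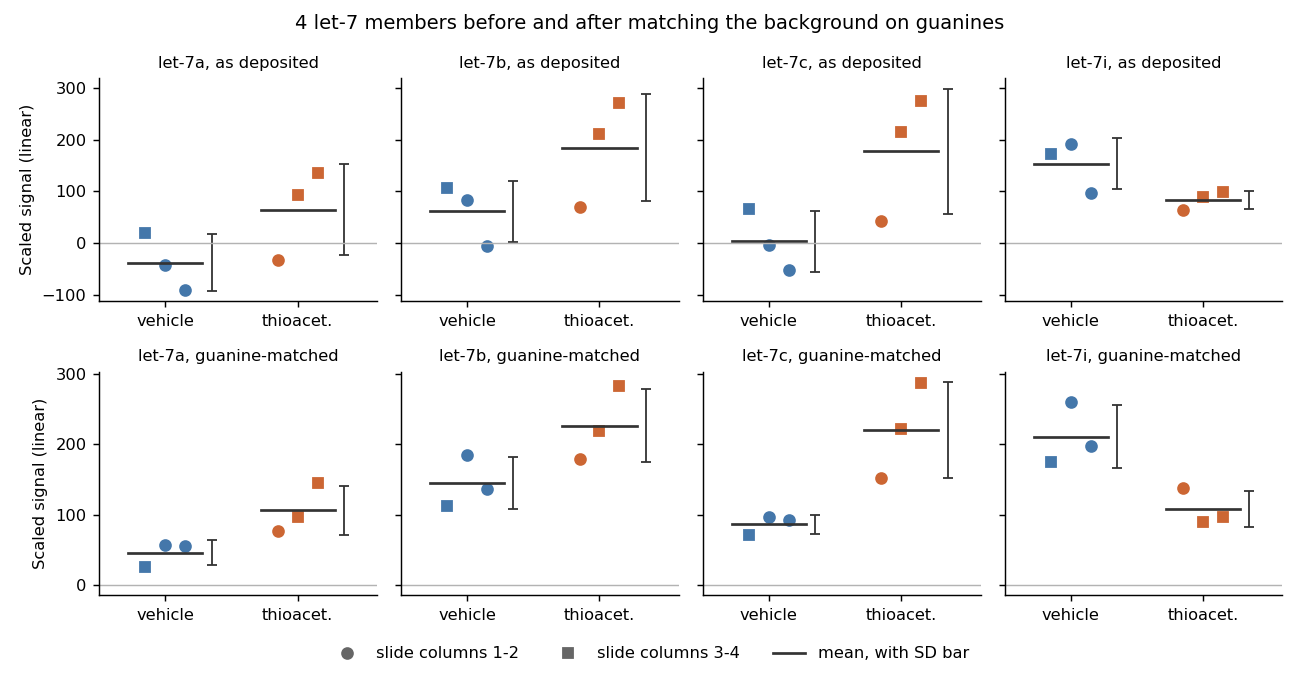
Scaled signal (linear) of let-7a, let-7b, let-7c and let-7i in the vehicle and thioacetamide arrays, with the background as deposited (top) and matched on guanines (bottom); circles are arrays on slide columns 1 to 2, squares those on columns 3 to 4, lines are means and bars SD of 3 arrays. No member was detected on the arrays of columns 1 to 2. After matching, the groups of let-7c and let-7i do not overlap, as is so for 49.2% of the tested miRNAs. Those of let-7a, which was not tested, do not overlap either, as is so for 8.27% of all 677 miRNAs. For let-7b thioacetamide 1 at 179 stays below vehicle 2 at 185.

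Let-7i followed other miRNAs than let-7b and let-7c did. Likeness was measured as the root-mean-square difference of the log2 profiles over the 6 arrays, each centred on its own mean, among the 56 tested miRNAs outside the family. The profile of let-7i was nearest to miR-93 (0.21), miR-15b (0.22) and miR-20a (0.25). The profile of let-7c was nearest to miR-26b (0.22), miR-327 (0.34) and miR-290 (0.38), and that of let-7b to miR-327 (0.35), miR-290 (0.45) and miR-24 (0.48). Let-7b and let-7c differed from each other by 0.37, and let-7i from them by 1.07 and 1.33. These distances describe 6 arrays that also share the slide columns given above. They use values after the floor, at which let-7c lay on 3 arrays, let-7b on 1 and let-7i on 0.

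The miRNAs encoded beside let-7 genes gave no test. Of miR-99a, miR-99b, miR-100, miR-125a-5p and miR-125b-5p, 2 were detected, miR-99a and miR-125b-5p, both on thioacetamide 2 and 3 alone, and none reached the 3 arrays of a test; of all 677 miRNAs, 14.6% were detected on any array. Processed signals of miR-125b-5p were 7.97, 65.7 and 52.4 in vehicle 1 to 3 and 208, 97.3 and 226 in thioacetamide 1 to 3. Those of miR-99a were 9.67, 77.2 and 104 against 332, 97.5 and 169. For both the lowest array was vehicle 1, the vehicle array of columns 3 to 4.

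Markers of possible source cells moved as follows. The hepatocyte list (4 of 4 detected) had summed processed signals of 185 to 346 in vehicle and 21271 to 41587 in thioacetamide. The red cell list had 5660 to 11179 against 3262 to 11362, with miR-144 undetected and miR-486 not on the array. The platelet and leukocyte list (2 of 5 detected) had 213 to 298 against 219 to 462. None of the 4 muscle or 3 brain miRNAs was detected. Processed signals of miR-451, the main red cell miRNA, were 8265, 6428 and 4257 in vehicle 1 to 3 and 8665, 2317 and 3544 in thioacetamide 1 to 3. Before scaling, thioacetamide 1 was thus the highest array. Scaled miR-451 was 8832, 8284 and 6802 in vehicle and 3811, 2988 and 2839 in thioacetamide. It is among the 8 miRNAs detected on all 6 arrays, and probes detected on all 6 set the scale. The part of liver and red cell miRNAs in the let-7 values was not tested.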

How the data were processed

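Intensity values were read from the deposited scanner files, 1 per array. They are linear processed signals with the background already subtracted (the submitters' processing notes name Agilent Feature Extraction, version 10.7.3.1); the authors' deposited matrix holds the same values. Control and outlier-marked spots were left out, spots averaged and probe means summed per miRNA. Each array was divided by a scale factor, the 75th percentile of the 12 probes that every array detected. By the rule for miRNAs, 8 were detected on every array, let-7d* and miR-451 among them. Scaled sums were raised to a floor of 46.1, their 5th percentile over detected miRNAs, before log2. A miRNA needed detection on 3 or more arrays, which left 59 that were fitted with limma 3.58.1 in R 4.3.3, with treatment as the only term and Benjamini-Hochberg adjustment over all 59; tables were made with Python 3.11.15. The fit was tested on simulated data with independent normal noise of a common spread. The simulation had no floor, slide-side difference or guanine background, so it does not test the fit under these. The number of arrays and of spots above background limits the precision. Each array has its own animal's weights in the labels, so arrays were taken as separate animals.

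The family was taken up, and the lists were chosen, with earlier results of these data known, although the rule for members uses names alone. Named were all 8 guide strands, all passenger strands, 5 miRNAs encoded beside let-7, the 3 nearest profiles of each tested member, miR-122 and miR-451. Alternatives changed the scaling, background, floor, filter, detection call, probe summary, outlier spots, slide side, replicate block, arrays left out and source of values. The labels do not say that the replicate numbers pair the animals. Where a miRNA was detected in 1 group only, a bound on the fold was sought. It needed scaled signals above 0 on every array of that group. Among the guide strands this applied to let-7a and let-7f. Their scaled signals on thioacetamide 1 were -33.1 and -66.8, so no bound was obtained.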

Additional observations from a re-analysis of the deposited data

How the results depend on the processing

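Over 31 alternatives the log2 difference of let-7b ran from -0.018 to 1.76, that of let-7c from 0 to 2.72 and that of let-7i from -1.91 to -0.01; let-7i was below 0 in all 31. Calls were gained for let-7b and let-7c without scaling (1.66 and 1.86), with spike-in scaling (1.71 and 2.10), and for let-7c with the guanine-matched background (1.32). Leaving out thioacetamide 1 gave a call for let-7c (1.63). With miRNAs and scaling kept, it gave calls for let-7b and let-7c (1.69 and 2.24). Leaving out vehicle 3 gave a call for let-7i (-1.91), but not with miRNAs and scaling kept. Columns 3 to 4 have 1 vehicle array, so their values (1.17, 1.91 and -0.88, and 1.84 for let-7c with guanines matched) are no calls of treatment. On columns 1 to 2, with thioacetamide 1 as the only treated array and no member detected, let-7c and the median of the tested members were 0. Leaving out each array in turn gave -0.018 to 1.20 for let-7b, 0.82 to 1.63 for let-7c and -1.91 to -0.65 for let-7i, with a median of -0.018 to 1.20; the lowest let-7b value and the median of -0.018 came without vehicle replicate 3. Without vehicle replicate 1, thioacetamide replicate 2 or thioacetamide replicate 3 no member was detected on 3 arrays. With the tested miRNAs and scaling of all 6 arrays kept, a choice made after seeing the data, the ranges were 0.71 to 1.69, 0.95 to 2.24 and -1.13 to -0.65, with a median of 0.71 to 1.69.

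Of all tested miRNAs, 9 were higher and 1 lower. The counts higher and lower were 3 and 0 with all probes setting the scale, 22 and 0 without scaling, 21 and 0 with spike-in scaling, 8 and 5 with quantile normalization, 12 and 4 with scaling on the median of the 8 miRNAs seen throughout, and 5 and 1 with normexp. They were 7 and 4 with the floor 4 times as high and 7 and 0 with it 0.25 times as high. They were 0 and 2 among the 8 miRNAs detected on all 6 arrays, 14 and 5 for detection on 1 array, 2 and 0 with no filter, 9 and 0 with the software's own detection call, and 14 and 3 with the brightest probe. Matching guanines gave 16 and 3, 23 and 2 on columns 3 to 4, and 14 and 2 with a side block. Slide side as a block gave 12 and 2, columns 1 to 2 gave 0 and 0, and columns 3 to 4 gave 33 and 4. Leaving out single arrays gave 6 to 18 higher and 0 to 7 lower, or 5 to 25 and 0 to 2 with miRNAs and scaling kept.

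The fit with the replicate number as a block gave limma adjusted p of 0.363, 0.288 and 0.304 for let-7b, let-7c and let-7i, with 10 miRNAs higher and 0 lower. The deviations of same-numbered arrays from their group means correlated at -0.70, -0.31 and -0.66. Each same-numbered pair lay on opposite sides of the slide, so these correlations cannot tell whether the animals were paired. The number of detected member and array pairs was 17 with any spot above background and 13 with every spot.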
